A study of Homo sapiens with 6 samples.

Results

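The POU3F and POU4F genes described here encode class III and class IV POU-domain transcription factors of the nervous system. They are 6 genes, POU3F3, POU3F1, POU3F2, POU4F1, POU4F2 and POU4F3, of 20037 protein-coding genes in the gene table used. The genes were listed by family, and POU3F3 was chosen by its EZH2 and H3K27me3 peaks in these same lists, which cluster at its start site in ZCCHC8-KO cells and not in ZCCHC8-WT cells. Its values are therefore a description, with no test. Peaks were placed in the gene plus 5 kb on both sides, and in the gene plus 100 kb on both sides.

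The cells were ACHN, an established line from a human renal cell carcinoma, of genotype ZCCHC8-WT (WT) or ZCCHC8-KO (KO). ZCCHC8 is the scaffold of the NEXT complex, which hands short-lived nuclear RNAs to the RNA exosome. Chromatin was precipitated with antibodies against EZH2 and against H3K27me3, and each library was compared with the input library of its genotype. There was 1 library per antibody and genotype, so no difference between WT and KO has a replicate check. No source used here says whether the KO cells are 1 clone or a pool, and peak lists give no check of the ZCCHC8 deletion itself.

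EZH2 is the enzyme of Polycomb repressive complex PRC2 that methylates lysine 27 of histone H3, and H3K27me3, its trimethylated product, marks silent developmental genes. CpG-rich genes of transcription factors that specify neurons are classic Polycomb targets in cells that do not use them. POU-domain factors bind octamer-like DNA through a POU-specific domain and a homeodomain. Class III factors act in neural progenitors, cortical neurons, Schwann cells and, for POU3F3, also in the developing nephron. Class IV factors act in sensory neurons, retinal ganglion cells and hair cells of the inner ear.

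The sequences before the start sites are shown because the peaks lie around them and because Polycomb targets tend to be rich in CpG dinucleotides. All 6 genes matched the RefSeq promoter table (GRCh38.p14), and the 250 bases before the start are printed for 3 of them, 5′ to 3′, with CG in capitals. POU3F3 carries the cluster listed in KO only, POU3F2 has EZH2 in both genotypes, and POU4F2 has no EZH2 peak within 5 kb of the gene in either.
POU3F3, chr2:104853865-104854114, plus strand: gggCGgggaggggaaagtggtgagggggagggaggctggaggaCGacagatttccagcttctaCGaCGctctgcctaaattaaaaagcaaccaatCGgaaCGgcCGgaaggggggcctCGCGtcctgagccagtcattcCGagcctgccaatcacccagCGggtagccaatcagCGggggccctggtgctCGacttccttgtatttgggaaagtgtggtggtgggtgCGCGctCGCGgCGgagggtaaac
POU3F2, chr6:98834324-98834573, plus strand: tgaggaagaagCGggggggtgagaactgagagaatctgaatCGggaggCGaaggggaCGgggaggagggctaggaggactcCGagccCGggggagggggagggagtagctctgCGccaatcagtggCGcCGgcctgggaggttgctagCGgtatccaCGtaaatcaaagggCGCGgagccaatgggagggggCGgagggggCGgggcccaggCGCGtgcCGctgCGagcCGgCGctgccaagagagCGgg
POU4F2, chr4:146638643-146638892, plus strand: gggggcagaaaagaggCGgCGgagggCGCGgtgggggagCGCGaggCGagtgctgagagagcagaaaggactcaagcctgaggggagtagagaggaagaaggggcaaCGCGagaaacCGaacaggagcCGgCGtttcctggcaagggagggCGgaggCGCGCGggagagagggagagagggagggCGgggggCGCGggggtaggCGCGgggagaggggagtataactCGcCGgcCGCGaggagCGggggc
POU3F3 has 18 CG dinucleotides in these 250 bases, POU3F2 has 22 and POU4F2 has 26. Of the others, POU4F1 has 37, POU3F1 36 and POU4F3 12, against a median of 17 over 15843 promoters of protein-coding genes, 96.9% of which hold at least 1. As many CG as in POU3F3 or more stood in 49.3% of all promoters, so POU3F3 is near the middle and is not the richest of the 6.

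Besides CG, 2 further motifs were searched on both strands. Neither contains CG or the other. CCAAT, the core of the CCAAT box (ATTGG on the opposite strand), was found 3 times each before POU3F3 and POU3F1 and 2 times before POU3F2, and not before the class IV genes. It occurs in 34.5% of all promoters, and 3 or more times in 3.70%. The octamer ATGCAAAT was found before none of the 6 and in 1.65% of all promoters. No peak of any list overlapped the 250 bases of any of the 6 genes. That is the usual state in these lists, since EZH2 peaks overlapped 0.511% of promoters in WT and 0.372% in KO, and H3K27me3 peaks 0.574% and 0.448%.

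Across the whole lists, KO held fewer peaks than WT. There were 30734 EZH2 peaks in WT and 19566 in KO, a ratio of 0.637, and 93095 and 69840 H3K27me3 peaks, a ratio of 0.750. The authors' score of a peak, which no source used here defines, started at 5 in the WT lists and at 4 in the KO lists, and had a median of 7 in WT and 5 in KO for EZH2, and of 7 and 6 for H3K27me3. A peak listed in KO only therefore appeared in the shorter list of each antibody. No source used here gives read depths, and the lists do not show weaker signal below the authors' threshold.

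At POU3F3, a factor of upper-layer cortical neurons and of the loop of Henle, EZH2 was listed in KO and not in WT. The gene plus 5 kb held 0 EZH2 peaks in WT and 17 in KO, which covered 13.2% of its 84.5 kb. H3K27me3 was listed in both genotypes, with 9 peaks covering 3.67% in WT and 14 covering 7.37% in KO. With only peaks of a score of 7 or more, a level that 69.8% of WT and 28.6% of KO H3K27me3 peaks reached, it had 8 in each genotype, so the excess in KO over this window was not kept. For EZH2, 0 in WT and 14 in KO were left. The KO-only description thus holds for EZH2 over the whole window and for H3K27me3 near the start site. The gene table draws POU3F3 over 74.5 kb, from 104853276 to 104927773 on chromosome 2, and all 9 WT H3K27me3 peaks lay 28.95 kb or more downstream of the start site (104854115). The annotated gene begins 839 bp before this start site. Positions below are in kb or bp from the start site, negative upstream.

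**Figure D1:**
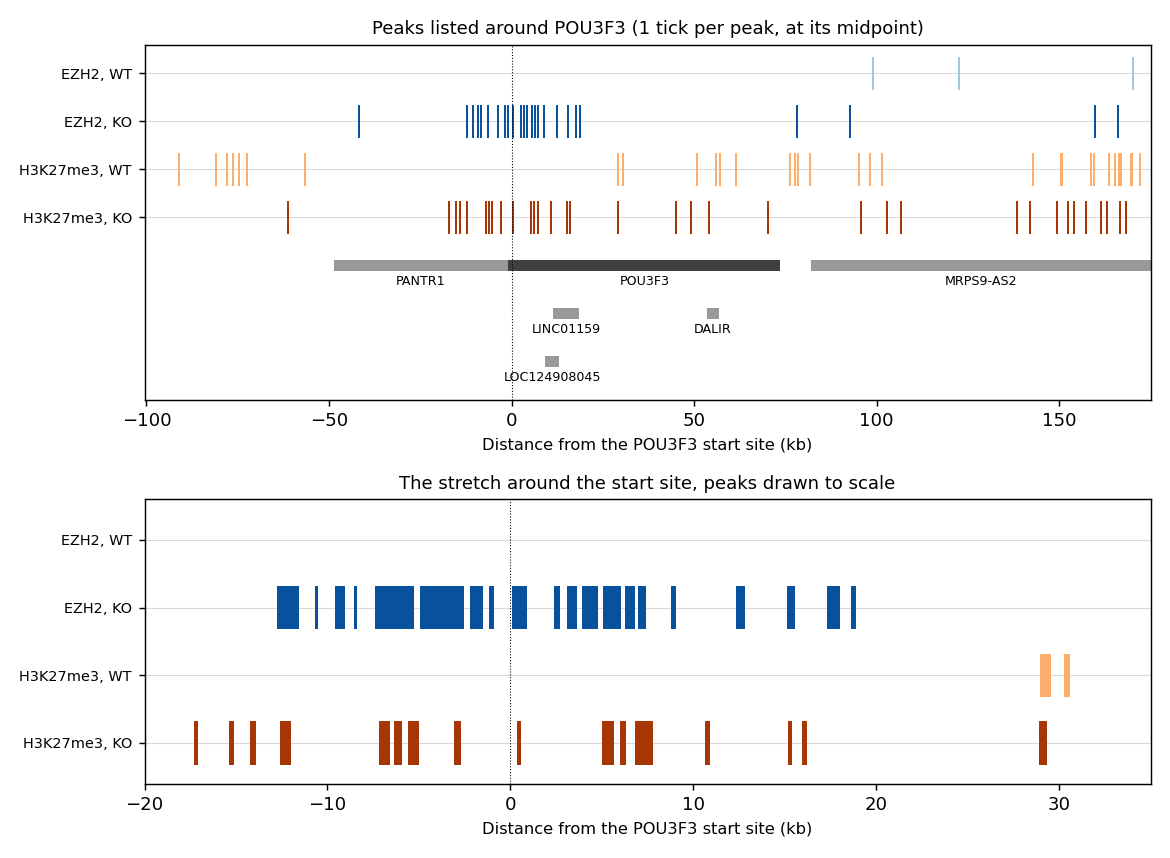
Peaks of the 4 lists around POU3F3 by distance from its start site in kb, with 1 tick per peak and the annotated genes as bars (upper panel), and the stretch near the start site with peaks to scale (lower panel). The KO lists hold 20 EZH2 and 15 H3K27me3 peaks within 20 kb of the start site and the WT lists none.

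The EZH2 peaks of KO formed 1 run at chr2:104841330-104873018 when peaks less than 4 kb apart were joined. It had 20 peaks over 31.7 kb, from -12.8 to 18.9 kb, and 45.1% of its length was covered. Upstream lay 8 peaks covering 7613 bp, and downstream 12 peaks covering 6670 bp. The upstream side held the 3 peaks of 1 kb or more, which were 1209, 2116 and 2375 bp long. The longest lay at -4931 to -2557 bp, chr2:104849184-104851558, with a score of 9. Next to the start site, 1 peak of 817 bp with a score of 12 began at 96 bp, and 1 of 292 bp with a score of 10 ended at -895 bp. The start site itself lay in the gap of 990 bp between them. The coverage was therefore on both sides of the start site, with fewer and longer peaks upstream.

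The peaks of the run were longer and had higher scores than most EZH2 peaks of the KO list. Their median length was 539 bp, from 169 to 2375 bp, against 233 bp in the whole list, where 0.583% reached 1 kb. Their median score was 8.5, from 5 to 12, against 5, and 16 of the 20 had a score of 7 or more, against 21.2% of the list. Of the 17 EZH2 peaks in the gene plus 5 kb, 16 belonged to the run and 1 lay at 78.0 kb, past the end of the gene, and 14 of the 17 had a score of 7 or more.

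**Figure D2:**
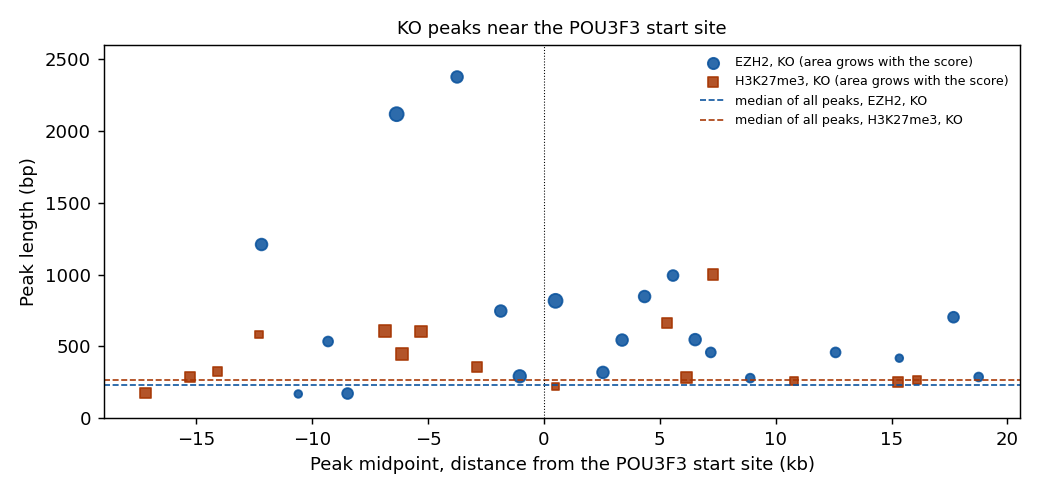
Length in bp of each KO peak near the POU3F3 start site against the distance of its midpoint in kb, with symbol area growing with the authors' score and dashed lines at the median length of each whole KO list. The 3 EZH2 peaks above 1 kb lie upstream, and most of the 20 lie above the median of 233 bp.

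H3K27me3 in KO accompanied the run. Of its H3K27me3 peaks, 12 overlapped the run, with lengths of 220 to 1001 bp (median 402) and scores of 5 to 9 (median 7), and 10 of the 12 overlapped an EZH2 peak. In the other direction, 8 of the 20 EZH2 peaks overlapped an H3K27me3 peak, against 19.0% of all EZH2 peaks of the KO list. The 2 shares are not matched for peak length, with medians of 539 bp in the run and 233 bp in the list. Both antibodies together covered 3898 bp. The longest shared stretch, 606 bp at chr2:104846945-104847550, lay at -7.2 to -6.6 kb inside the EZH2 peak of 2116 bp, which overlapped 3 H3K27me3 peaks with a score of 9 each. A further stretch of 566 bp lay at 5.1 to 5.6 kb, chr2:104859192-104859757. H3K27me3 reached farther upstream than EZH2, with 3 more peaks between -17.3 and -13.9 kb. EZH2 reached farther downstream, to 18.9 kb against 16.2 kb for the last H3K27me3 peak before the gap ahead of 28.9 kb. Both KO lists were called against the same input library.

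In WT, no peak of either antibody lay between 104797559 and 104883067, a stretch of 85.5 kb that runs from -56.6 to 29.0 kb. It is bounded on the left by a WT H3K27me3 peak of 173 bp with a score of 6 and on the right by one of 608 bp with a score of 8. The right one, inside POU3F3, overlapped a KO H3K27me3 peak of 409 bp. KO had 21 EZH2 peaks in the stretch and 15 H3K27me3 peaks lying inside it. Whether this DNA was covered by reads in the WT libraries was not tested, since the lists hold only peaks.

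WT-free stretches of this size were common, but few held so many KO peaks. Over chromosomes 1 to 22 and X, 7611 stretches of 85.5 kb or more lay between neighbouring WT peaks. Of these, 33.6% held an EZH2 peak of KO, 74 held 5 or more and 19 held 10 or more. Only 2 held more than the 21 at POU3F3, and they were 203 and 4410 kb long. Among the 1098 stretches of 85.5 to 100 kb, the highest number outside POU3F3 was 6. Runs of EZH2 peaks less than 4 kb apart numbered 15602 in KO. Of these, 30 had 10 or more peaks, and 3 of the 30 had no WT EZH2 peak. In WT there were 24667 runs, of which 42 had 10 or more peaks, and 3 of the 42 had no KO EZH2 peak. Runs of this size in 1 genotype only were thus as many in WT as in KO. Among the KO runs, the POU3F3 run was the second by number of peaks (the first had 21) and the first by covered length. The other 2 KO runs of 10 or more peaks without WT EZH2 overlapped no protein-coding gene. They lay on chromosome 4 at 49097152 to 49112803 and on chromosome 16 at 46386353 to 46401557. Their median scores were 23 and 543.5 against 8.5 at POU3F3. In the whole KO EZH2 list, the median score was 5 and the 90th percentile 8. Why these 2 runs scored so far above the list was not tested. POU3F3 was chosen for this cluster, so its ranks are a description and no support. The settings also follow the locus. The length of 85.5 kb is that of its own stretch, and the 4 kb joining gap exceeds the widest gap in its run, 3314 bp.

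Outside the WT-free stretch, the neighbourhood of POU3F3 held fewer H3K27me3 peaks in KO than in WT on both sides. On the right, over 145 kb, there were 25 WT and 18 KO H3K27me3 peaks covering 7595 and 7669 bp, and 4 of the 25 overlapped a KO peak. EZH2 had 3 WT and 4 KO peaks there, none of them overlapping. On the left, over 44.3 kb, 7 H3K27me3 peaks were listed in WT and 1 in KO, and no EZH2 peak in either. Within 100 kb of the gene, the excess of KO over WT peak numbers thus lay in the stretch that is empty in WT, apart from 1 more EZH2 peak on the right.

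The cluster extended over RNA genes next to POU3F3. PANTR1, a long non-coding RNA gene annotated from -48.7 to -0.9 kb, had 9 EZH2 and 8 H3K27me3 peaks in KO and none in WT over 47.8 kb. LINC01159, a non-coding RNA gene inside the POU3F3 interval, had 3 and 2, and LOC124908045, a predicted protein-coding gene there, 1 and 1, again with none in WT. DALIR, a non-coding RNA gene also inside the POU3F3 interval, 53.6 kb downstream of the start site, had 1 H3K27me3 peak in each genotype and no EZH2. MRPS9-AS2, at 82.1 kb and beyond, had 3 and 5 EZH2 peaks and 16 and 13 H3K27me3 peaks in WT and KO. LINC01114 and the pseudogene HMGB3P11, to the left, had no peak in any list. The lists give no strand, so peaks over these genes cannot be assigned to 1 of them where they overlap.

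POU3F2, a class III factor that acts together with POU3F3 in neural progenitors and the cortex, had both marks in both genotypes. EZH2 had 6 peaks in WT, covering 19.1% of the gene plus 5 kb, and 4 in KO, covering 8.92%. All 4 KO peaks overlapped a WT peak. Within the gene, the WT peak with the highest score, 14, lay 2.12 kb downstream of the start site and had no KO counterpart. The KO peak with the highest score, 8, began 3.22 kb downstream and overlapped a WT peak of 252 bp. H3K27me3 had 4 peaks in each genotype, covering 15.2% in WT and 10.9% in KO, and 3 of the 4 were shared. PNKY, a non-coding RNA gene just upstream, had 38.5% of its 1.56 kb covered by EZH2 in WT and 19.5% in KO, and 36.5% and 13.8% by H3K27me3. POU3F2 thus had fewer EZH2 peaks in KO where POU3F3 had more.

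Over the 100 kb on both sides of POU3F2, EZH2 had 15 peaks in WT and 6 in KO, and 5 of the 6 KO peaks overlapped a WT peak. H3K27me3 had 23 and 15, of which 6 were shared. In the list as a whole, 7.97% of KO EZH2 peaks overlapped a WT peak and 21.4% of KO H3K27me3 peaks did. The shared peaks lay within 10 kb of the gene for EZH2, and most of the WT-only H3K27me3 peaks lay farther upstream.

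**Figure D3:**
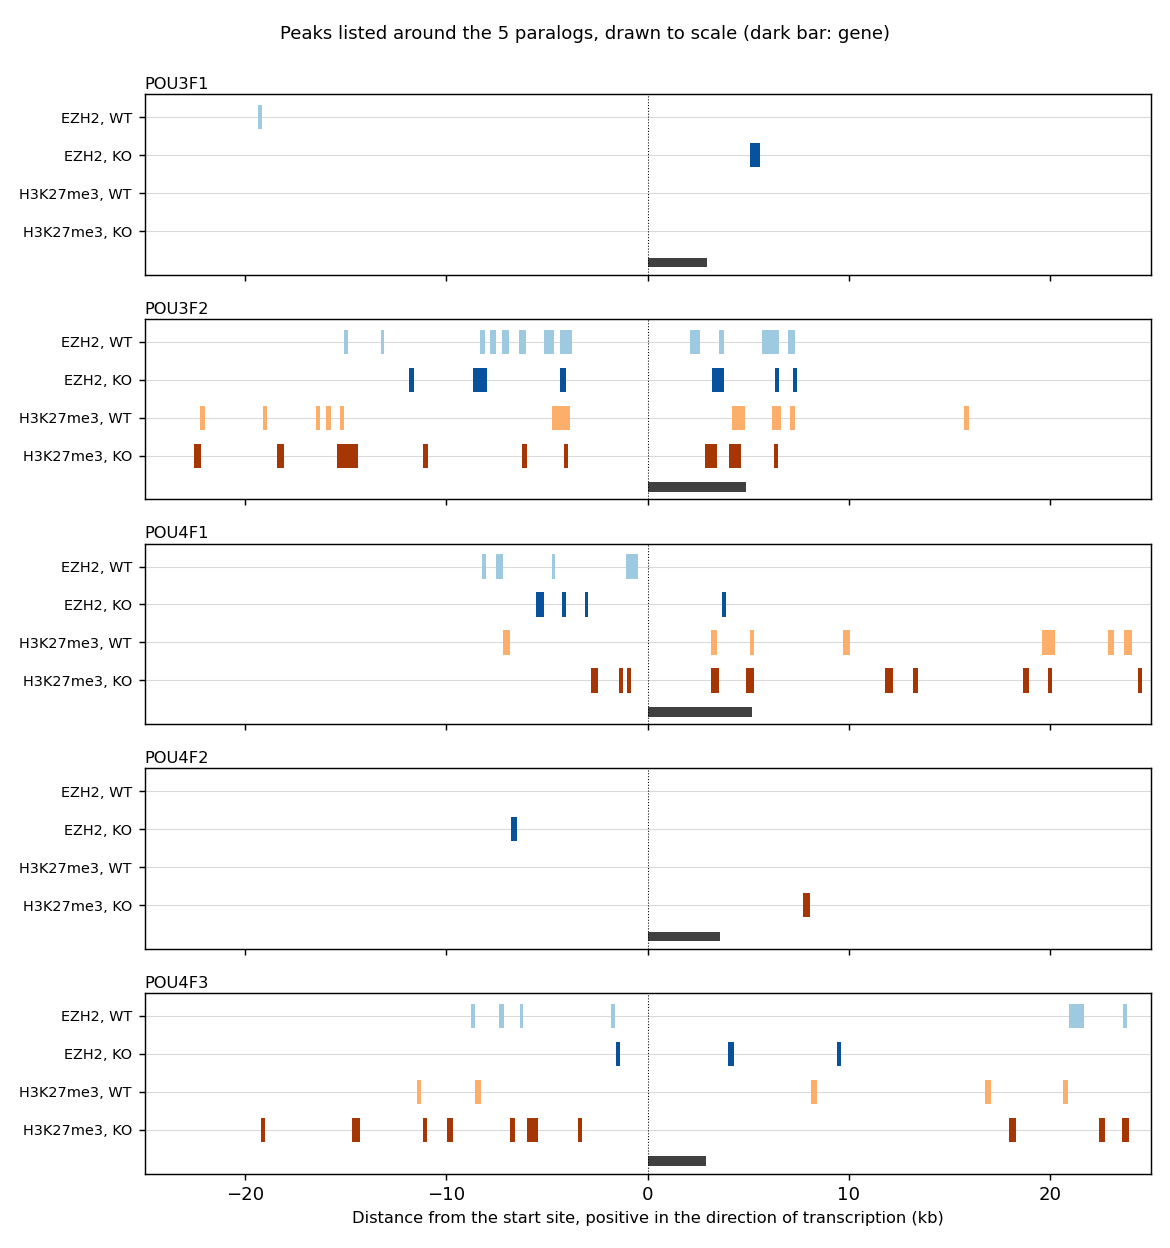
Peaks of the 4 lists to scale around the 5 paralogs of POU3F3, by distance in kb from each start site in the direction of transcription, with the gene as a dark bar. POU3F2 shows both marks in both genotypes, POU4F1 and POU4F3 short scattered peaks, and POU3F1 and POU4F2 at most 1 peak per list within 20 kb.

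POU3F1, which drives the myelination programme of Schwann cells, was nearly free of peaks. The gene plus 5 kb held 1 EZH2 peak in KO, 485 bp long with a score of 6, placed 5.11 kb downstream of the start site, and no other peak of any list. Within 100 kb there were 1 and 2 EZH2 peaks and 1 and 1 H3K27me3 peaks in WT and KO, none of them shared. The nearest H3K27me3 peak was 96.8 kb away in WT and 98.2 kb away in KO.

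POU4F1, a factor of sensory ganglia, had short peaks of both marks in both genotypes. EZH2 had 2 peaks in WT and 3 in KO in the gene plus 5 kb, covering 5.12% and 3.55%, with none shared. The WT peak nearest the start, 610 bp with a score of 10, lay 0.48 kb upstream, and the 3 KO peaks were 170 to 185 bp long with scores of 4 and 5. H3K27me3 had 3 and 5 peaks covering 5.10% and 10.2%, and the 2 WT peaks that overlap the gene were both listed again in KO. The 3 KO peaks nearest upstream lay between -2786 and -799 bp, where WT had none. No EZH2 peak of POU4F1 overlapped an H3K27me3 peak within 5 kb in either genotype.

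POU4F2, the factor of retinal ganglion cells, had 1 H3K27me3 peak in KO in the gene plus 5 kb, 321 bp long with a score of 4, the lowest score listed in KO. Just outside that window, 6.47 kb upstream of the start site, lay 1 EZH2 peak of KO, 327 bp long with a score of 5. The nearest WT peaks were 70.0 kb away for H3K27me3 and 185 kb away for EZH2. Over 100 kb on both sides there were 0 and 1 EZH2 peaks and 1 and 3 H3K27me3 peaks in WT and KO.

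POU4F3, the factor of cochlear hair cells, had 1 EZH2 peak in WT and 2 in KO in the gene plus 5 kb. The WT peak, of 171 bp with a score of 10, and a KO peak of 213 bp with a score of 5 lay 1.63 and 1.36 kb upstream without overlapping. H3K27me3 had no peak there in WT and 1 in KO, of 200 bp. The surroundings were rich in H3K27me3, with 25 peaks in WT and 32 in KO within 100 kb, covering 4.68% and 5.19%, and 7 of them were shared. The gene itself had no peak in any list. The readthrough gene RBM27-POU4F3 covers POU4F3 and most of its upstream side, so the peaks upstream belong to both annotations.

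Counted over the 6 genes, the gene plus 5 kb held an EZH2 peak in 3 genes in WT and 5 in KO, against 26.9% and 18.3% of all 20037 protein-coding genes. An EZH2 peak in KO with none in WT was listed for 2, POU3F3 and POU3F1, against 5.74% of all genes, and the reverse for 0, against 14.3%. An EZH2 peak in both was listed for 3, against 12.6%. More EZH2 peaks in KO than in WT were listed for 4 of the 6, against 8.29%, and fewer for 1, POU3F2, against 20.8%. H3K27me3 was listed for 3 genes in WT, against 26.0%, and for 5 in KO, against 23.1%, with KO only for POU4F2 and POU4F3, against 5.03%, WT only for 0, against 7.88%, and both for 3, against 18.1%. It had more peaks in KO for 4, against 11.0%, and fewer for 0, against 16.2%. None of the 6 had peaks of both antibodies in KO and of neither in WT, against 0.659% of genes, and none was without a peak in all 4 lists, against 57.0%. A difference of peak number as large as that of POU3F3 was reached by 0.00499% of genes for EZH2, POU3F3 alone, and by 1.41% for H3K27me3. These genes were chosen with these lists known, so nothing is read from the shares. The excess of marked genes in KO depended on peaks of low score. With a score of 7 or more, EZH2 was listed for 3 genes in WT and 2 in KO, which turns the direction, and H3K27me3 for 3 in each. That score was reached by 65.5% of all EZH2 peaks in WT and 21.2% in KO, and by 69.8% and 28.6% of H3K27me3 peaks. The same cut thus removes a larger share of the KO lists.

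**Figure D4:**
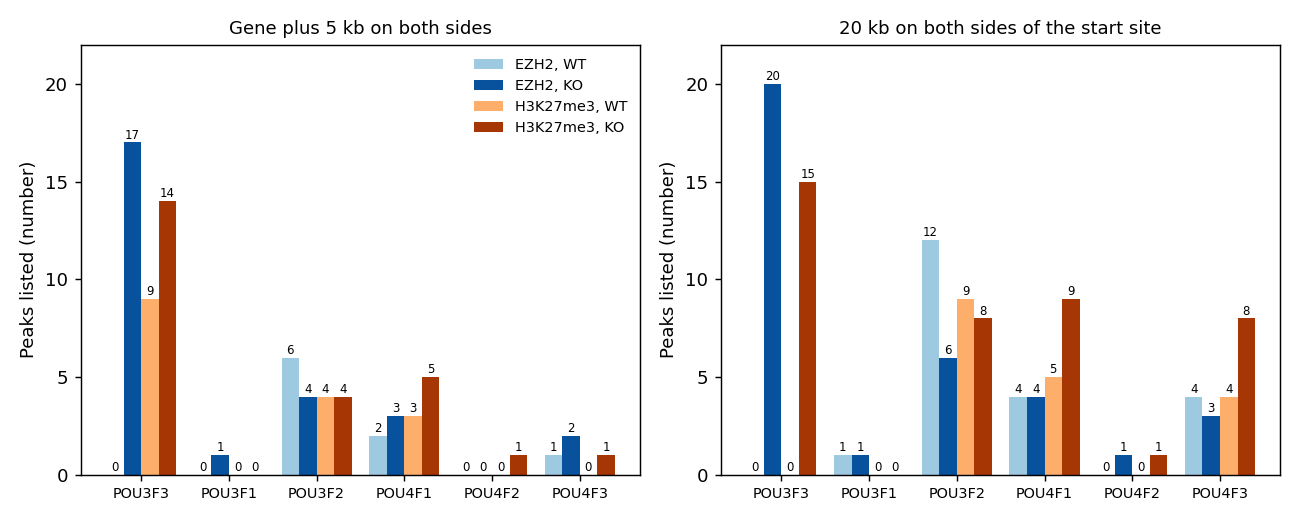
Number of peaks per gene and list in the gene plus 5 kb (left) and in equal windows of 20 kb on both sides of the start site (right), with each count above its bar. POU3F3 stands at 0 and 20 EZH2 peaks in the right panel, and POU3F2 at 12 and 6.

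The 6 genes differ in annotated length, so equal windows of 20 kb on both sides of the start site, chosen after the positions of the peaks were seen, were also counted. In these windows POU3F3 had 0 EZH2 peaks in WT and 20 in KO, covering 35.7%, and 0 and 15 H3K27me3 peaks, covering 15.8%. POU3F2 had 12 and 6 EZH2 peaks and 9 and 8 H3K27me3 peaks. POU4F1 had 4 and 4, and 5 and 9, and POU4F3 had 4 and 3, and 4 and 8. POU3F1 had 1 and 1 EZH2 peaks and no H3K27me3, and POU4F2 had 0 and 1 of each. The 5 paralogs together had 21 EZH2 peaks in WT and 15 in KO, and 18 and 26 H3K27me3 peaks. Without POU3F3, EZH2 peaks in these windows were thus fewer in KO and H3K27me3 peaks more numerous, whereas in the gene plus 5 kb the 5 paralogs had 9 and 10 EZH2 peaks and 7 and 11 H3K27me3 peaks. The lower EZH2 number in the equal windows lay mainly at POU3F2 (12 and 6). The whole EZH2 list was also shorter in KO, at a ratio of 0.637. The direction for EZH2 thus depended on the window. For both antibodies it also depended on the score: with a score of 7 or more, the 5 paralogs had 8 EZH2 peaks in WT and 1 in KO in the gene plus 5 kb, and 5 and 3 H3K27me3 peaks. This threshold keeps 65.5% of all EZH2 peaks in WT but 21.2% in KO, and 69.8% and 28.6% of H3K27me3 peaks. Under this threshold, POU3F3 was the gene of the 6 that kept an excess of EZH2 peaks in KO.

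In the equal windows, EZH2 marked 4 of the 6 genes in WT and 6 in KO, against 25.2% and 16.1% of 15843 genes, with 2 in KO only (6.68%), 0 in WT only (15.7%) and 4 in both (9.44%). It had more peaks in KO for 2 (8.84%) and fewer for 2, POU3F2 and POU4F3 (19.6%). H3K27me3 was listed for 3 genes in WT, against 31.5%, and for 5 in KO, against 27.5%, with 2 in KO only (6.17%), 0 in WT only (10.1%) and 3 in both (21.3%). It had more peaks in KO for 4 (13.5%) and fewer for 1, POU3F2 (19.4%). None of the 6 lacked peaks in all 4 lists, against 52.8%.

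Over the 15843 protein-coding genes with a start in the promoter table, peaks of both antibodies in KO and of neither in WT were listed for 131 genes, 0.827%. POU3F3 and POU4F2 were among them, with 20 and 15 peaks at POU3F3 and 1 and 1 at POU4F2. POU3F3, chosen for these peaks, had the largest difference of EZH2 peak number of all these genes, and 0.00631% of genes, POU3F3 alone, reached it. The next were LOC124908045 (0 and 16), which shares the cluster, IQSEC3, a synaptic guanine exchange factor gene (8 and 17), and RPH3A, a rabphilin gene of synaptic vesicles (5 and 13). IQSEC3 and RPH3A were named after their values were seen. Both had EZH2 in WT, unlike POU3F3. For H3K27me3, 0.0126% of genes, 2 of them, had a difference of 15 or more. These were POU3F3 (0 and 15) and, with a larger difference, KCNA5 (8 and 24), named after its values were seen.

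The genes most like POU3F3 were ranked by EZH2 covered share in KO of the gene plus 5 kb, among 131 genes outside its neighbourhood with both marks in KO and neither in WT. POU3F3 itself does not meet that condition because of its distal WT H3K27me3 peaks. The first 5 were DUX4 (5.71%), LCE2B (4.93%), OLIG3 (4.29%), RGS11 (3.8%) and LOC101927345 (3.75%), each below the 13.2% of POU3F3. They had 3, 1, 1, 2 and 4 EZH2 peaks. DUX4, a cleavage-stage factor, lies in repeated near-identical copies, so its value is uncertain. OLIG3, a factor of the dorsal spinal cord, had 1 EZH2 peak in WT and 3 in KO within 20 kb of its start. None of the 5 had more than 4 EZH2 peaks, against 17 at POU3F3, but their windows were 11.3 to 26.8 kb long against 84.5 kb. Within 20 kb of the start, LCE2B had 7 and 8 H3K27me3 peaks in WT and KO, and OLIG3 had 3 and 7. DUX4 and LOC101927345 had 0 and 1 there.

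Among the other 9 POU genes, none had a peak in KO only, against 5.74% of all genes for EZH2 and 5.03% for H3K27me3. EZH2 was listed for 4 in WT (44.4%) and 3 in KO (33.3%), against 26.9% and 18.3% of all genes. H3K27me3 was also listed for 4 and 3, against 26.0% and 23.1%. POU2F3, a factor of tuft cells, had 6 and 4 EZH2 peaks and 9 and 12 H3K27me3 peaks in WT and KO. POU2F2, a B-cell factor, had 3 and 2, and 6 and 1. POU2F1, the widely expressed OCT1, had 4 EZH2 peaks in WT only. POU3F4, the class III gene on chromosome X, had 1 H3K27me3 peak in WT only. POU1F1, POU5F1, POU5F2 and POU6F1 had none in any list. Medians of the covered share were 0 in each list, as over all protein-coding genes.

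Lists of genes that work with these factors were read the same way, and their medians are of the covered share of the gene plus 5 kb (0 over all genes with either antibody and genotype). Of 22 SOX partners and early neural factors, 14 had EZH2 in WT and 11 in KO, which is 63.6% and 50.0% against 26.9% and 18.3% of all genes, with medians of 0.205% and 0.0629%. Of these genes, 9 had EZH2 in both genotypes (12.6% of all genes did), 5 had WT peaks alone (14.3%) and 2 KO peaks alone (5.74%). H3K27me3 marked 14 and 14, or 63.6% against 26.0% and 23.1%, and 13 of them in both (18.1%). SOX2, the progenitor factor that pairs with class III POU proteins, had 1 EZH2 peak in WT and 3 in KO (1.48% and 7.07%), and the proneural gene NEUROG1 had none and 4.41%. H3K27me3 coverage went the other way in both, with 10.6% in WT and 7.42% in KO at SOX2 and 5.43% and 1.97% at NEUROG1. SOX21, a SOX family repressor, had 13.5% and 4.06%, and NEUROG2, another proneural gene, 14.1% and 8.76%. Their H3K27me3 coverage was 5.41% and 7.44% at SOX21 and 15.5% and 7.07% at NEUROG2. No gene of this list had both marks in KO and neither in WT, against 0.659% of all genes.

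Of 20 sensory and retinal factors that act with POU4F genes, 14 had EZH2 in WT (70.0%) and 10 in KO (50.0%), against 26.9% and 18.3% of all genes, with 8 in both (12.6% of all genes) and medians of 0.378% and 0.0631%. H3K27me3 marked 12 (60.0%) and 11 (55.0%), against 26.0% and 23.1%. ATOH1, which acts upstream of POU4F3 in hair cells, had 6.24% in WT and no EZH2 in KO, with 4.64% and 1.39% for H3K27me3, and LHX3, a motor neuron factor, had 5.55% and none, with no H3K27me3. GFI1, a target of POU4F3 in hair cells, had 2.39% and 7.98% for EZH2, and 13.5% and 7.8% for H3K27me3, which went the other way. BARHL2, a retinal homeobox gene, had 1.6% and 5.4% for EZH2 and no H3K27me3. TLX3, a factor of sensory interneurons named after its values were seen, had 1 EZH2 and 1 H3K27me3 peak in KO and none in WT (1.64% and 1.92%). It was the 1 gene of these 20 with both marks in KO and neither in WT, against 0.659% of all genes.

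Of 14 Schwann cell and myelin genes, 3 had EZH2 in WT and 3 in KO (21.4% each), close to the 26.9% and 18.3% of all genes. H3K27me3 was listed for 1 (7.14%) and 2 (14.3%), below the 26.0% and 23.1% of all genes. EGR2, a myelination factor that acts downstream of POU3F1, had 2.64% and 2.38% EZH2 coverage and 11.8% and 2.24% H3K27me3 coverage. PMP22, a myelin protein gene, had no peak in WT and 3 EZH2 and 2 H3K27me3 peaks in KO (1.86% and 2.06%). It was the 1 gene of these 14 with both marks in KO and neither in WT, against 0.659% of all genes. ERBB3, the neuregulin receptor gene, had 0.620% EZH2 in KO only. MBP, myelin basic protein, had 0.140% EZH2 in WT only.

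Of 22 genes of the loop of Henle and distal nephron, where POU3F3 acts in the kidney, 8 had EZH2 in WT (36.4%) and 5 in KO (22.7%), near the 26.9% and 18.3% of all genes, with 4 in both (12.6% of all genes). H3K27me3 was listed for 11 (50.0%) and 8 (36.4%), against 26.0% and 23.1%. SIM1, a hypothalamic and renal factor, had 7 and 8 EZH2 peaks covering 2.84% and 5.78%, and 2 and 2 H3K27me3 peaks covering 0.585% and 0.502%. CLDN10, a claudin of the thick ascending limb, had 3 and 3 EZH2 peaks (0.413% and 0.499%) and 25 and 10 H3K27me3 peaks. IRX1 and IRX2, homeobox genes of the developing nephron, had 1.95% and 0.945% in WT and no EZH2 in KO. PAX2, PAX8 and LHX1, factors of the renal lineage named after their values were seen, had no peak in any list, as was so for 57.0% of all genes. No gene of the loop of Henle list had both marks in KO and neither in WT, against 0.659% of all genes. Peaks give no RNA values, so transcription of these genes was not measured.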

How the data were processed

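EZH2 and H3K27me3 peaks were compared between ZCCHC8-WT and ZCCHC8-KO ACHN cells from 4 deposited lists, 1 per antibody and genotype, each called against the input of its genotype, per the peak names. The submitters' processing notes name cutadapt 1.9.3, Bowtie2 2.2.4 and the build hg38. The peak names carry a threshold of 1e-3, and the peak caller and the depth are unknown here. Per peak, the deposited lists hold a position, a length and the authors' score, which no source defines. Identical lines were removed, and positions were read as 1-based. Genes came from a RefSeq table (GRCh38.p14) without strand or exons, and start sites from its promoter table. Peaks were counted by an overlap of 1 bp with Python 3.11.15, NumPy 2.4.6 and pandas 2.3.3, and drawn with matplotlib 3.10.9. The counting was tested on simulated data: among 20037 genes, 200 of the 200 that were given peaks were found.

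The genes and lists were chosen with earlier results of these data known. No test was made, since there was 1 library per group. The rule for named genes took the 6 genes, the other POU genes, the 2 largest deficits and excesses of EZH2 covered share per list, the annotated neighbours of POU3F3, and the 5 genes most like it. The values of 1 gene that the rule names are not reported here. Alternatives changed the score threshold, list length, gene window, peak assignment and joining; equal windows around the start were added after the data were seen.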

Additional observations from a re-analysis of the deposited data

How the results depend on the processing

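Of 96 values under 8 alternatives (12 counts each), 67 stayed within 1.5 times and 29 moved beyond. With only peaks of a score of 7 or more, EZH2 marked 2 of the 6 genes in KO and 3 in WT, H3K27me3 marked 3 and 3, the 5 paralogs had 1 and 8 EZH2 and 3 and 5 H3K27me3 peaks in KO and WT, and POU3F3 had 8 and 8 H3K27me3 peaks. These turn or end the excess in KO, while POU3F3 kept 14 EZH2 peaks in KO and 0 in WT. The cut is unequal, since it kept 65.5% of WT and 21.2% of KO EZH2 peaks, and 69.8% and 28.6% of H3K27me3 peaks. With gene bodies only, EZH2 marked 3 genes in KO and 1 in WT, H3K27me3 marked 3 in KO, and the paralogs had 2 and 2 EZH2 and 4 and 3 H3K27me3 peaks in KO and WT. With 10 kb on both sides, the paralogs had 18 EZH2 peaks in WT and 17 H3K27me3 peaks in KO. With 100 kb, POU3F3 had 3 EZH2 peaks in WT and 34 and 32 H3K27me3 peaks in KO and WT, the paralogs 24 and 30 EZH2 and 65 and 62 H3K27me3 peaks, and EZH2 and H3K27me3 marked 5 and 6 genes in WT. With peaks closer than 1 kb joined, POU3F3 had 7 EZH2 peaks in KO and 5 H3K27me3 peaks in WT. With equal windows around the start, POU3F3 had 0 H3K27me3 peaks in WT, and the paralogs 21 EZH2 peaks in WT and 26 and 18 H3K27me3 peaks in KO and WT. Windows and joining change the counts by construction; for the score threshold, the cause was not tested. Raising the lowest WT score, which left 20138 EZH2 peaks (19566 in KO) but 85445 H3K27me3 peaks (69840 in KO), or placing peaks by midpoint, moved none of the 12 counts beyond 1.5 times. No paired analysis was possible because each group had 1 library. The unknown depth limits any reading of an absent peak.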
